A study of Mus musculus with 22 samples.

Results

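The genes described here are Tlr4, its co-receptors Cd14, Ly96 and Lbp, its adaptors Myd88, Tirap, Ticam1 and Ticam2, and the RP105 pair Cd180 and Ly86. They were taken by name: 10 of the 25471 genes in the deposited tables, all 10 of which passed the filter on low counts. The RNA came from the midshaft portion of the ulna (a bone of the forearm) of 11 mice: 7 wildtype (WT) animals and 4 labelled CKO, a conditional knockout that the series title ties to Toll-like receptor 4 in osteoblasts, the bone-forming cells. Each mouse gave a loaded right ulna and a non-loaded left ulna, which makes 7 libraries each of WT non-loaded and WT loaded bone and 4 each of CKO non-loaded and CKO loaded bone. The driver of the deletion, the strain, age and sex of the animals, the loading regime and the time of harvest are not given in the labels used here.

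Toll-like receptor 4 (TLR4) is the receptor for lipopolysaccharide of Gram-negative bacteria and responds to some molecules set free by damaged tissue. Lipopolysaccharide-binding protein (Lbp) hands the ligand to CD14, which passes it to the complex of TLR4 and its accessory protein MD-2, the product of Ly96. At the cell surface the bridging adaptor TIRAP recruits MyD88, the route to early NF-kB activity and inflammatory cytokines; from endosomes TRAM (Ticam2) recruits TRIF (Ticam1), the route to interferon regulatory factors. RP105 (Cd180) resembles TLR4 outside the cell but lacks its signalling domain, and pairs with MD-1 (Ly86); the pair is known for holding back TLR4 in myeloid cells and for activating B cells. In bone, TLR4 is known from osteoblasts as well as from the macrophages, neutrophils and osteoclast precursors of the marrow.

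The pieces of bone held other tissues. All 14 markers of osteoblasts and osteocytes were counted in every library, with Col1a1 at 1247 to 19550 CPM (counts scaled to library size) and the osteocyte gene Dmp1 at 99.7 to 528.8 CPM. All 19 monocyte and macrophage, 16 neutrophil, 12 B lineage and 20 skeletal muscle markers were also counted in every library. The muscle markers summed to 44100 to 167100 CPM in WT, 24610 to 170900 CPM in CKO non-loaded and 123600 to 196900 CPM in CKO loaded libraries. CPM here use library sizes adjusted by TMM scaling, so these sums are not shares of the raw counts. Libraries held 21999891 to 42833729 counts. Ltbp2, a gene of extracellular microfibrils that was singled out for its values, lay at 26.5 to 73.5 CPM in 13 WT libraries and at 205.1 to 343.9 CPM in 7 CKO libraries, but at 380.2 CPM in the library labelled WT loaded 686 and at 38.4 CPM in the library labelled CKO loaded 688. Those libraries go against their labels by this gene, so the comparisons and correlations were also run without these mice, and the values that moved most are given beside the results.

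Per kilobase of annotated exon, Myd88 had the highest mean level of the 10 genes, and Ticam2 and Ly96 had the lowest, close to each other. The mean over all 22 libraries was 11.6 ± 3.14 CPM per kilobase (SD, n = 22) for Myd88, 8.11 ± 1.53 for Lbp, 5.71 ± 0.80 for Tlr4, 4.93 ± 0.68 for Tirap and 4.05 ± 0.49 for Ticam1. It was 3.85 ± 0.96 for Ly86, 3.604 ± 1.27 for Cd14, 2.80 ± 0.76 for Cd180, 1.09 ± 0.39 for Ly96 and 1.03 ± 0.37 for Ticam2. Myd88 stood above Lbp, and Lbp above Tlr4, in 22 of 22 libraries, and Cd180 stood above Ly96 in 22 of 22. Tlr4 exceeded Tirap, and Tirap exceeded Ticam1, in 19 of 22 libraries. Neighbours further down changed places from library to library: Ticam1 exceeded Ly86 in 15, Ly86 exceeded Cd14 in 14, Cd14 exceeded Cd180 in 14 and Ly96 exceeded Ticam2 in 10 of 22. The message of MD-2 was thus scarcer per length than that of its receptor partner TLR4, and 14 to 89 counts stood behind each Ly96 value.

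Tlr4 (ENSMUSG00000039005; GRCm38 chr4:66827584-66930284, plus strand), the gene the knockout is aimed at, was present in all libraries at similar levels. It ran from 24.9 through a median of 31.1 to 39.4 CPM in WT non-loaded and from 28.9 through 32.2 to 42.2 CPM in WT loaded ulnae. In the CKO mice 688, 691, 693 and 698 it was 29.3, 31.3, 25.7 and 33.8 CPM in the non-loaded and 32.5, 30.03, 29.3 and 24.9 CPM in the loaded limb. The groups overlapped: every CKO value but 1, the loaded limb of 698, lay inside the range of all WT values, and that value of 24.88 CPM stood beside a WT minimum of 24.92. Averaged over limbs, the CKO mice lay 0.15 below WT on the log2 scale (exact two-sided permutation test over 330 assignments of the mice, n = 4 and 7, p = 0.197; the smallest p this design allows is 0.00303). The difference was 0.19 below in loaded limbs (exact p = 0.139), 0.11 below in non-loaded limbs (exact p = 0.424) and 0.21 below without mice 686 and 688 (exact p = 0.107). In edgeR the fold change of CKO against WT with both limbs summed was -0.15 on the log2 scale, with a 95% interval of -0.38 to 0.08. Counts summed over the whole gene and over all cells of the piece do not show whether an exon is missing or whether 1 cell type has lost the message, so they do not check the genotype labels. In such bulk samples fewer cells of a type and less RNA per cell cannot be told apart.

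Of the co-receptor genes, Cd14 (ENSMUSG00000051439; minus strand), which encodes the surface protein that delivers lipopolysaccharide, was 4.69 to 8.10 CPM (median 5.32) in WT non-loaded and 4.28 to 8.80 CPM (median 5.72) in WT loaded ulnae. The CKO mice 688, 691, 693 and 698 had 3.52, 13.3, 5.66 and 4.84 CPM non-loaded and 6.38, 9.77, 6.14 and 4.38 CPM loaded. Mouse 691 had the highest Cd14 of all mice in both limbs, the non-loaded limb of 688 had the lowest value of all libraries, and the remaining CKO values overlapped WT.

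Ly96 (ENSMUSG00000025779; chr1:16688051-16709611, plus strand) had lower means in the loaded limbs of both genotypes, a difference that did not pass the test adjusted over all genes. It was 0.944 to 1.87 CPM (median 1.099) in WT non-loaded and 0.765 to 1.28 CPM (median 0.885) in WT loaded bone. Values in CKO mice 688, 691, 693 and 698 were 0.808, 2.23, 0.754 and 1.57 CPM non-loaded and 1.001, 1.02, 1.16 and 0.438 CPM loaded. The loaded limb was the higher in 2 of 7 WT and 2 of 4 CKO mice. Averaged over genotypes the loading effect on Ly96 was -0.49 ± 0.21 (log2, SE; 95% interval -0.93 to -0.05; edgeR unadjusted p = 0.0291, adjusted p = 0.999). It was -0.34 without mouse 691 (unadjusted p = 0.132) and -0.63 without mice 686 and 688 (unadjusted p = 0.0159).

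Lbp (ENSMUSG00000016024; chr2:158306493-158332852, plus strand), best known as a plasma protein made by the liver, was well expressed in these bones. It was 31.5 to 49.4 CPM (median 37.5) in WT non-loaded and 30.5 to 56.1 CPM (median 38.9) in WT loaded ulnae. For CKO mice 688, 691, 693 and 698 the values were 29.7, 55.8, 36.0 and 38.9 CPM non-loaded and 37.9, 46.1, 33.9 and 30.1 CPM loaded. The 4 groups overlapped, and the loading effect was 0.09 ± 0.14 in WT and -0.12 ± 0.19 in CKO (log2, SE).

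**Figure D1:**
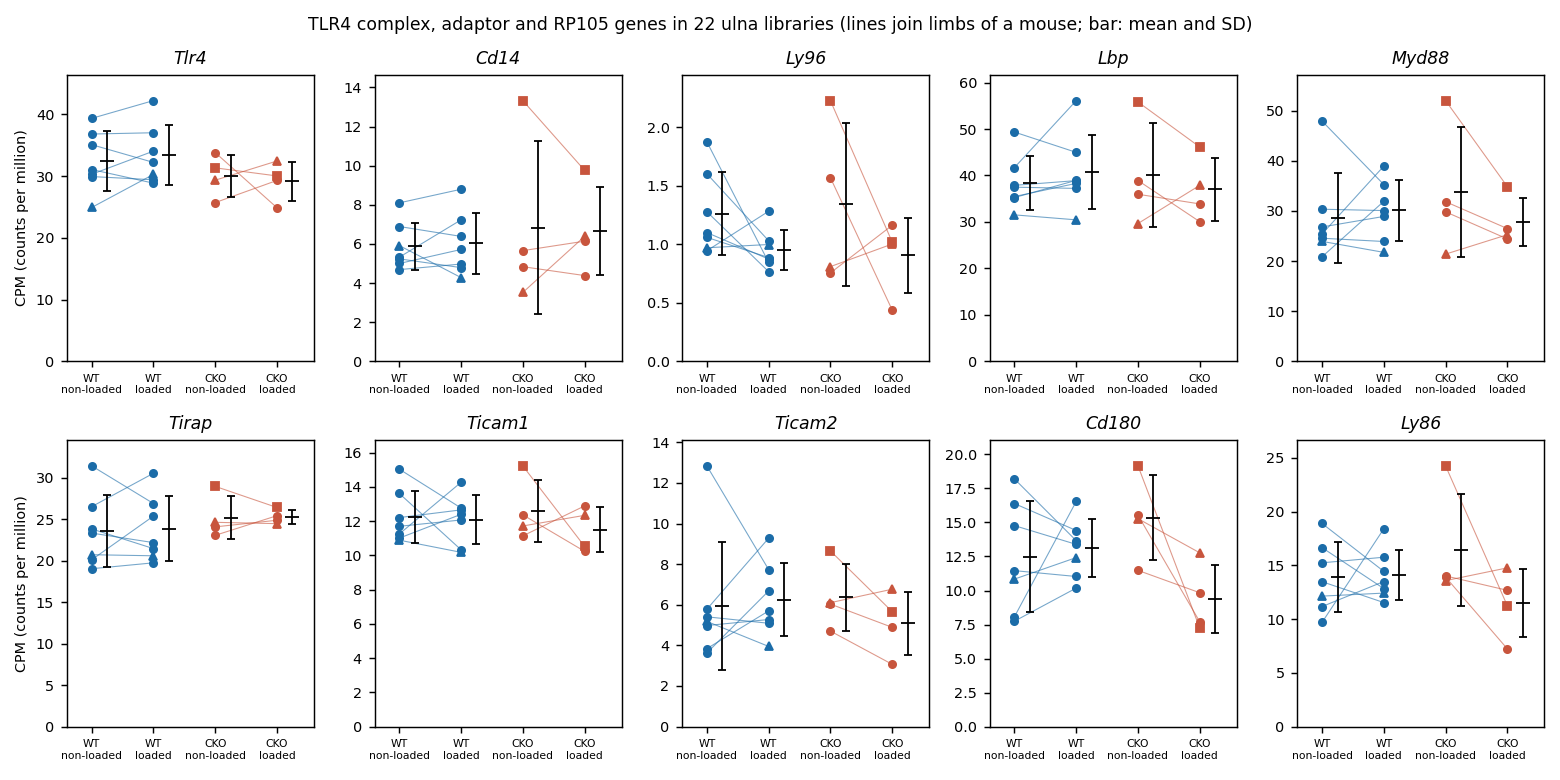
Levels of the 10 genes in CPM (linear axis from 0) in each of the 22 libraries, by genotype and limb; lines join the limbs of a mouse, and black bars show the mean and SD of each group (n = 7 for WT, n = 4 for CKO). Triangles are mice 686 and 688 and the square is mouse 691; the groups overlap for most genes, while Cd180 is lower in the loaded than in the non-loaded limb of 4 of 4 CKO mice.

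Of the adaptor genes, Myd88 (ENSMUSG00000032508; chr9:119335934-119341411, minus strand), the shared adaptor of most Toll-like receptors, was 20.9 to 47.9 CPM (median 25.4) in WT non-loaded and 21.7 to 39.0 CPM (median 30.1) in WT loaded ulnae. The 4 CKO mice 688, 691, 693 and 698 gave 21.4, 52.0, 31.8 and 29.8 CPM non-loaded and 25.3, 34.9, 26.5 and 24.4 CPM loaded. The highest values were the non-loaded limbs of CKO 691 and WT 699, and the groups overlapped. Its loading effect was 0.08 ± 0.19 in WT and -0.28 ± 0.25 in CKO (log2, SE).

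Tirap (ENSMUSG00000032041; chr9:35184551-35200291, minus strand), which brings MyD88 to the membrane, had the smallest estimated loading effect of the 10 genes in CKO. In WT its estimate was about as small as that of Ticam1 (0.016 and -0.017). It was 19.1 to 31.5 CPM (median 23.4) in WT non-loaded and 19.8 to 30.6 CPM (median 22.2) in WT loaded ulnae, and all 8 CKO values, 23.1 to 29.0 CPM, lay within that span. The loading effect was 0.02 (95% interval -0.22 to 0.25) in WT and 0.01 (-0.30 to 0.31) in CKO on the log2 scale.

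The TRIF gene Ticam1 (ENSMUSG00000047123; chr17:56269319-56276786, minus strand) was 10.9 to 15.04 CPM (median 11.7) in WT non-loaded and 10.2 to 14.3 CPM (median 12.4) in WT loaded ulnae. The CKO libraries spanned 11.1 to 15.2 CPM non-loaded and 10.2 to 12.9 CPM loaded. Its groups overlapped, and its loading effect was -0.02 in WT (95% interval -0.22 to 0.19) and -0.14 in CKO (-0.41 to 0.14). The TRAM gene Ticam2 (ENSMUSG00000056130; minus strand) was 3.63 to 12.8 CPM (median 5.18) in WT non-loaded and 3.95 to 9.28 CPM (median 5.70) in WT loaded ulnae. In CKO mice 688, 691, 693 and 698 it was 6.10, 8.65, 6.03 and 4.70 CPM non-loaded and 6.77, 5.66, 4.89 and 3.07 CPM loaded, lower in the loaded limb of 3 of 4 mice. Its loading effect in CKO, -0.33 ± 0.34 (log2, SE), was no larger than its error.

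Some of these counts are uncertain where genes overlap. Ticam2 shares 838 exonic bases on the same strand with Tmed7, so that reads there could be assigned to either. Myd88 shares 290 exonic bases with Acaa1a on the opposite strand, Cd180 shares 182 with Mast4, and Tirap shares 446 with an antisense gene and 39 with Srpr. The kit marks strand, but no source used here says whether the counting used it.

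Cd180, the RP105 gene, had the largest loading effect of the 10 genes in CKO mice, without passing the test adjusted over all genes. It (ENSMUSG00000021624; chr13:102693558-102739629, plus strand) was 7.75 to 18.2 CPM (median 11.5) in WT non-loaded and 10.2 to 16.6 CPM (median 13.4) in WT loaded ulnae. In CKO mice 688, 691, 693 and 698 it was 15.3, 19.2, 11.5 and 15.5 CPM non-loaded and 12.8, 7.25, 9.84 and 7.70 CPM loaded. Each CKO mouse was thus lower in its loaded limb, with the widest gaps in 691 and 698, whereas 3 of 7 WT mice were higher in theirs. The groups of CKO limbs overlapped, since the loaded limb of 688 exceeded the non-loaded limb of 693. That loaded library of 688 is the one that goes against its label by Ltbp2. The other CKO loaded values, 7.25, 9.84 and 7.70 CPM, lay below every CKO non-loaded value. The limb difference was -0.72 ± 0.58 in CKO (log2, SD, n = 4) and 0.12 ± 0.48 in WT mice (n = 7).

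Ly86 (ENSMUSG00000021423; chr13:37345208-37419036, plus strand), whose product MD-1 is needed for RP105 to reach the cell surface, followed Cd180. It was 9.70 to 18.9 CPM (median 13.5) in WT non-loaded and 11.5 to 18.4 CPM (median 13.5) in WT loaded ulnae. In CKO mice 688, 691, 693 and 698 it was 13.6, 24.3, 14.0 and 13.9 CPM non-loaded and 14.8, 11.2, 12.7 and 7.23 CPM loaded. The loaded limb was lower in 3 of 4 CKO mice, by the most in 691 and 698, and the limb difference was -0.52 ± 0.60 in CKO (log2, SD, n = 4) and 0.04 ± 0.46 in WT mice (n = 7). Over the 11 mice the limb differences of Cd180 and Ly86 correlated at r = 0.96, and over the 22 libraries their levels correlated at 0.85, the highest value among all pairs of the 10 genes. The next pairs over libraries were Lbp with Myd88 at 0.84 and Cd14 with Lbp at 0.82; the values of a pair come from the same libraries and share their depth and tissue make-up.

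Because Cd180 and Ly86 moved together, the bases before their transcription starts are shown, from RefSeq on GRCm38.p6; promoter entries were matched for 5 of the 10 genes. Capitals mark GGAA or its reverse complement TTCC, the core letters bound by ETS-family factors such as PU.1, a regulator of myeloid and B lineage genes. The Cd180 stretch is the 250 bases before its first RefSeq start (chr13:102693297-102693546, plus strand), and the Ly86 stretch is the part of its 250-base window that lies before every annotated exon of the gene (chr13:37345095-37345207, 113 bases, plus strand).
Cd180: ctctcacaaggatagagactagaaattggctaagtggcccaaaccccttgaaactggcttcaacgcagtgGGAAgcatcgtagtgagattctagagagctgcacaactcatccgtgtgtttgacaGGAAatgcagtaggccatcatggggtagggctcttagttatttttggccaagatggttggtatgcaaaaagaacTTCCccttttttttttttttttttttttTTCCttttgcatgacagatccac
Ly86: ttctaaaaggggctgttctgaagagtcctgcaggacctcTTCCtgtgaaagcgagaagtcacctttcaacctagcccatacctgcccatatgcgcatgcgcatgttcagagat

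The Cd180 window held 4 such matches and the full Ly86 window 3, of which 1 is in the stretch shown. These letters are common: 93.4% of 27025 genes hold GGAA on either strand of the same 250 bases. The longer letters GAGGAA, which contain the core and occur before 23.1% of genes, and GAGGAAGT, which contain both and occur before 2.44%, were searched on both strands as well. Neither window held them. Among the matched genes Ticam1 alone held GAGGAA, 30 bases before its start.

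In edgeR 0 of the 10 genes passed the adjusted threshold of 0.05 in any of 7 comparisons. Most 1.5-fold changes placed in simulated data were missed in each comparison, so this does not show that the genes were unchanged. Loading in WT called 0.00532% of 18793 genes, and 2.34% had an unadjusted p under 0.05, as against 0 of the 10. In WT 8 of the 10 fold changes lay above 0, with a median of 0.04 on the log2 scale (all genes -0.01). Loading in CKO called 0.016% of genes and 3.6% had an unadjusted p under 0.05, as did 2 of the 10, Cd180 and Ly86. In CKO 1 of the 10 fold changes lay above 0, with a median of -0.21 (all genes -0.01). The count depends on the setting: 3 of 10 lay above 0 without mouse 691, and 7 of 10, with a median of 0.07, when scores of muscle and marrow markers were covariates. In limma voom with quality weights it was 5 of 10, with a median of 0.04. DESeq2 gave an unadjusted p under 0.05 for 0 of the 10 in WT and 2 in CKO, and limma voom with quality weights for 2 and 1, again with 0 past the adjusted threshold.

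Cd180 had a loading effect in CKO of -0.72 ± 0.25 (log2, SE; 95% interval -1.23 to -0.20; edgeR unadjusted p = 0.00885, adjusted p = 0.739), and Ly86 one of -0.52 ± 0.23 (-1.004 to -0.04; unadjusted p = 0.0348, adjusted p = 0.739). In WT the effects were 0.07 ± 0.19 for Cd180 and 0.03 ± 0.17 for Ly86. Without mouse 691 the CKO effects were -0.48 (unadjusted p = 0.110) and -0.26 (unadjusted p = 0.311). Without mice 686 and 688 they were larger, -0.89 (unadjusted p = 0.00819) and -0.74 (unadjusted p = 0.0148), both at adjusted p = 0.368.

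The difference between the loading effects of the genotypes, CKO minus WT, used the same libraries and is not separate evidence from loading in CKO. For Cd180 it was -0.78 ± 0.31 (log2, SE; 95% interval -1.43 to -0.14; edgeR unadjusted p = 0.0196, adjusted p = 0.697), and for Ly86 -0.55 ± 0.29 (-1.15 to 0.05; unadjusted p = 0.0726, adjusted p = 0.697). All 10 genes lay below 0 in this difference as fitted, from Tirap at -0.01 to Cd180, with a median of -0.19 (all genes 0.00). Without mouse 691 it was 6 of 10, and with muscle and marrow scores as covariates Cd180 (-0.47) and Ly86 (-0.09) alone lay below 0, while 8 of 10 lay above 0 (median 0.08). In limma voom with quality weights 4 of 10 lay above 0 (median -0.03). For the receptor gene Tlr4 the difference in edgeR was -0.09, with an interval of -0.45 to 0.28. This comparison called 0% of genes and 2.6% had an unadjusted p under 0.05, as did 1 of the 10, in edgeR as in DESeq2 and limma voom with quality weights. The Cd180 difference was -0.54 (unadjusted p = 0.128) without mouse 691 and -0.93 (unadjusted p = 0.0204) without mice 686 and 688. Without 686 and 688 the Ly86 difference was -0.75 (unadjusted p = 0.037, adjusted p = 0.367) and that of Ticam2 -0.62 in place of -0.40.

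**Figure D2:**
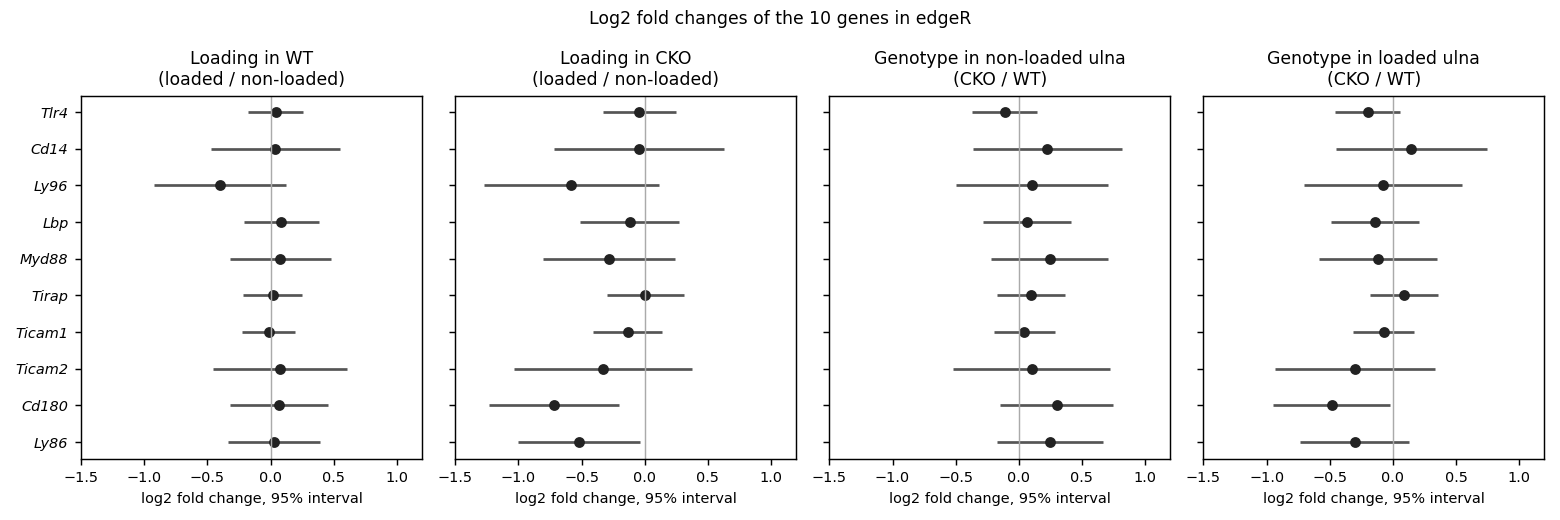
Log2 fold changes of the 10 genes in edgeR (points) with 95% intervals (bars) for loading in each genotype and for CKO against WT in each limb; the vertical line is 0. Intervals of Cd180 and Ly86 lie below 0 for loading in CKO and that of Cd180 for genotype in loaded bone, while all others in these 4 panels include 0.

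Between genotypes the side of 0 on which most of the 10 genes lay changed with the setting. In edgeR, in non-loaded bone with all mice and no covariates, 9 of 10 fold changes of CKO against WT lay above 0 (median 0.10, all genes 0.00). Tlr4 was the exception, at -0.11 (95% interval -0.37 to 0.14). The others ran from 0.04 for Ticam1 to 0.30 for Cd180. Without mice 686 and 688 the highest were Cd14 at 0.44 and Myd88 at 0.37, with Cd180 at 0.27. Without mouse 691 2 of 10 lay above 0, with the muscle and marrow covariates 4 of 10, and in limma voom with quality weights 5 of 10. This comparison called 0% of genes and 3.04% had an unadjusted p under 0.05, as against 0 of the 10 in edgeR and DESeq2 and 1 in limma voom with quality weights. In loaded bone 2 of 10, Cd14 at 0.15 and Tirap at 0.09, lay above 0 in edgeR, and the median was -0.13 (all genes -0.04). With the covariates 6 of 10 lay above 0, and in limma voom with quality weights 4 of 10. Without mice 686 and 688 Ticam2 was -0.53 in place of -0.30. Tlr4 was at -0.20 (95% interval -0.46 to 0.06), and Cd180 at -0.48 ± 0.22 (SE; interval -0.95 to -0.02; edgeR unadjusted p = 0.0418, adjusted p = 0.601). In loaded bone the background was 0% of genes called and 6.81% with an unadjusted p under 0.05, as for 1 of the 10 with each of the 3 tools. These comparisons share their libraries with those of loading and are not separate evidence.

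With the limbs of each mouse summed, 5 of 10 genes lay above 0 (1 of 10 without mouse 691), the median was 0.00 (all genes -0.01), and Tlr4, at -0.15 ± 0.10 (log2, SE; edgeR unadjusted p = 0.173, adjusted p = 0.918), was the lowest of the 10. That comparison called 0% of 19962 genes, and 3.16% had an unadjusted p under 0.05, as against 0 of the 10 in all 3 tools. Averaged over genotypes, loading called 0.0905% of genes and 3.17% had an unadjusted p under 0.05, as did 2 of the 10, Ly96 and Cd180 (-0.32 ± 0.15, adjusted p = 0.999); DESeq2 gave 2 and limma voom with quality weights 0. With the mouse as a replicate block it was 0 of the 10, with Ly96 at -0.45 (edgeR unadjusted p = 0.081) and Cd180 at -0.31 (unadjusted p = 0.0642). The interval for Tlr4 under loading, averaged over genotypes, was -0.18 to 0.18 on the log2 scale, the narrowest of the 10 after Ticam1.

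Beyond these 10 genes, 1 gene of the pathway passed the test in any comparison, the target gene Ptgs2. Of 20 genes that carry the signal inside the cell (kinases, ubiquitin ligases and transcription factors), 0 were called in any comparison. Under loading 16 lay above 0 in WT (median 0.05) and 3 in CKO (median -0.11), beside 8962 and 9070 of all 18793 genes. Values of this list with the muscle and marrow covariates are not given here. The smallest p in CKO belonged to the interferon regulatory factor gene Irf7, at -0.58 ± 0.29 (log2, SE; edgeR adjusted p = 0.739). In loaded bone the kinase genes Ikbkb and Ikbke were lower in CKO by values that did not pass adjustment, -0.35 ± 0.13 and -0.45 ± 0.21 (both edgeR adjusted p = 0.601). Of 10 genes that restrain the pathway, 0 were called; the A20 gene Tnfaip3 gave 0.16 ± 0.15 in WT and -0.29 ± 0.19 in CKO under loading. Of 8 genes for chaperones and trafficking of the receptor, 0 were called, and the same held for 7 tested genes of endogenous ligands. Among these ligands Fn1 gave 0.32 ± 0.21 under loading in WT and S100a8 gave -0.72 ± 0.61 in CKO. S100a8 is also on the neutrophil marker list, of which 0 of 16 lay above 0 under loading in CKO (median -0.57).

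Among 18 tested target genes of the pathway, the COX-2 gene Ptgs2, whose product makes prostaglandins, rose under loading averaged over genotypes, by 1.74 ± 0.27 on the log2 scale (edgeR adjusted p = 0.00531), the 1 call in these lists. Its effect was 1.73 ± 0.33 in WT and 1.75 ± 0.43 in CKO, neither past the adjusted threshold alone. The chemokine gene Cxcl1 gave 1.61 ± 0.57 in WT and 1.91 ± 0.72 in CKO. The feedback inhibitor gene Socs3 gave 0.97 ± 0.31 in CKO and 0.74 ± 0.19 averaged over genotypes (edgeR adjusted p = 0.423). An unadjusted p under 0.05 was reached by 4 of 18 targets in each genotype, beside 2.34% of all genes in WT and 3.6% in CKO. The target list was chosen with earlier results of these data known, so these shares are not a test of the targets. Of the targets 12 of 18 lay above 0 in WT (median 0.13) and 6 of 18 in CKO (median -0.34), beside 8962 and 9070 of all 18793 genes (median -0.01 in both). Ptgs2, Cxcl1 and Socs3 are also targets of other stimuli.

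The lower Cd180 and Ly86 values in the loaded limbs of CKO 691 and 698 stood beside lower marrow and higher muscle markers. In those 2 mice the muscle score was 2.64 and 0.82 higher (log2) in the loaded limb, and the monocyte and macrophage score differed by -0.95 and -0.97. Mouse 693 moved less, by 0.22 and -0.15. Mouse 688, whose loaded library goes against its label by Ltbp2, went the other way. Its differences were -0.44 for muscle, 0.29 for monocytes and macrophages, 0.44 for neutrophils and 1.75 for erythroid cells. In the fit to all mice, under loading in CKO 0 of 12 B lineage markers lay above 0 (median -0.54), 1 of 19 monocyte and macrophage markers (median -0.50), 0 of 16 neutrophil markers (median -0.57) and 0 of 12 T and NK cell markers (median -0.68). Osteoclast markers, of the bone-resorbing cells, were at 0 of 8 in CKO (median -0.69) and also at 0 of 8 in WT (median -0.38). Of the skeletal muscle markers 20 of 20 lay above 0 in CKO (median 0.54), beside 9070 of all 18793 genes. Under loading in WT 11 of 12 B lineage and 11 of 19 monocyte and macrophage markers lay above 0. For neutrophils it was 6 of 16, for T and NK cells 6 of 12 and for muscle 4 of 20, beside 8962 of all genes. The summed B lineage markers were 330.2 to 438.1 CPM in CKO non-loaded and 180.6 to 324.0 CPM in CKO loaded libraries, 123.3 to 441.0 CPM in WT non-loaded and 163.6 to 502.6 CPM in WT loaded libraries. The summed monocyte and macrophage markers were 2021 to 4212 CPM in CKO non-loaded, 1189 to 2512 CPM in CKO loaded, 1913 to 5137 CPM in WT non-loaded and 1826 to 3491 CPM in WT loaded libraries. No marker of either list was at 0 in any library. With muscle and marrow scores as covariates the loading effect in CKO was -0.41 for Cd180 (edgeR unadjusted p = 0.0467, adjusted p = 1) and -0.13 for Ly86 (unadjusted p = 0.279, adjusted p = 1), and the difference between genotypes for Cd180 was -0.47 (unadjusted p = 0.0695).

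The relation of each gene to these tissues was measured over the 11 mice with scores, each the mean log2 CPM of a marker list, in 120 relations (10 genes, 6 scores, 2 measures). P-values are two-sided permutation p-values adjusted over all 18793 genes. For the mean of both limbs, 7 of the 10 genes correlated with the monocyte and macrophage score, all positively, where 29.6% of genes were called. The neutrophil score gave 5 of 10 (19.8% of genes), the B lineage score 0 of 10 (0.192%) and the muscle score 3 of 10, all negative (22.2%). The remaining scores gave 1 of 10 for osteoblasts and osteocytes, where Tirap had r = -0.82 (5.42% of genes), and 0 of 10 for adipocytes (0%).

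**Figure D3:**
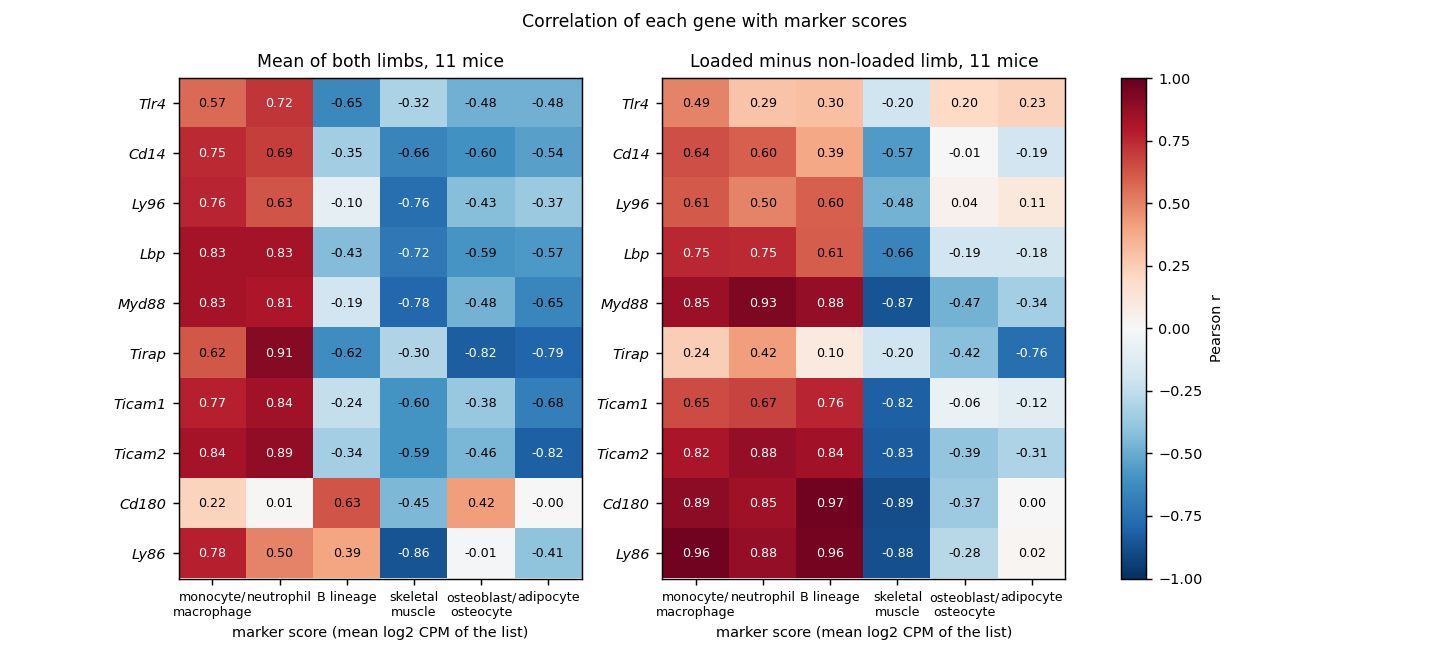
Pearson correlation of each of the 10 genes (rows) with 6 marker scores (columns) over 11 mice, for the mean of both limbs (left) and for the loaded minus the non-loaded limb (right); colour runs from -1 (blue) to 1 (red). Myd88, Ticam2, Cd180 and Ly86 have high positive values with the 3 marrow scores in the right panel, while Tlr4 and Tirap stay at 0.49 or below.

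Among the adaptor genes, Tirap, Ticam1 and Ticam2 had their highest correlation with the neutrophil score. Tirap had r = 0.91 (rho = 0.84; permutation p = 6e-05, adjusted p = 0.00293; adjusted p = 0.0386 for rho), 0.97 in the 7 WT mice alone and 0.88 without the 2 mice farthest from the median score, 699 and 692. Ticam2 had r = 0.89 (rho = 0.84; permutation p = 0.00051, adjusted p = 0.00875), Ticam1 0.84 and Myd88 0.81. Without mice 699 and 692 r was 0.68 for Ticam2, 0.64 for Ticam1 and 0.72 for Myd88. For rho Ticam1, Myd88 and Lbp did not pass with this score (adjusted permutation p = 0.0987, 0.0779 and 0.0906). Lbp correlated with the neutrophil score at 0.83 and with the monocyte and macrophage score at 0.83. Tlr4 itself had r = 0.72 with the neutrophil score (rho = 0.59; permutation p = 0.0151, adjusted p = 0.0642) and 0.34 without mice 699 and 692, so that this value rests on them.

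With the monocyte and macrophage score, the mean levels of Cd14 (r = 0.75, rho = 0.85), Ly96 (0.76, 0.65), Lbp (0.83, 0.84), Myd88 (0.83, 0.76), Ticam1 (0.77, 0.64), Ticam2 (0.84, 0.75) and Ly86 (0.78, 0.67) passed the adjusted threshold for r, with permutation p-values adjusted to between 0.00975 for Ticam2 and 0.0376 for Cd14. For rho Cd14 and Lbp passed. Without mice 699 and 691, which lie farthest from the median score, r fell to 0.42 for Myd88 and 0.38 for Ly96, and was 0.54 to 0.64 for the others. Tlr4 had r = 0.57 (adjusted p = 0.146), Tirap 0.62 (0.103) and Cd180 0.22 (0.633), none past the threshold. Ly86 ran most strongly against the muscle score (r = -0.86, rho = -0.81; permutation p = 0.00041, adjusted p = 0.00626), at -0.94 in WT mice alone and -0.77 without mice 691 and 699.

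The loaded minus non-loaded difference per mouse, a measure chosen after the mouse means had been seen, gave another order of genes. In these differences the marrow scores move together (B lineage with monocyte and macrophage r = 0.91, B lineage with neutrophil 0.88, muscle with B lineage -0.88), so that a relation to 1 of them is not separate from the others. Of all genes 46.4% were called with the monocyte and macrophage score, 52.6% with the neutrophil score, 48.8% with the B lineage score and 50.7% with the muscle score. The 10 genes gave 5, 6, 5 and 5 calls, those with the muscle score all negative, which is close to these shares.

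Cd180 had the highest value of the 10 with the B lineage score, r = 0.97 (rho = 0.78; permutation p = 2e-05, adjusted p = 0.00144), above 99.8% of all tested genes. It was 0.97 in WT mice alone and 0.93 without mice 694 and 691. Ly86 had r = 0.96 with the B lineage score (rho = 0.81; adjusted p = 0.00146) and 0.96 with the monocyte and macrophage score (rho = 0.96; permutation p = 1e-05, the smallest that 100000 resamples can give; adjusted p = 0.00101), above 99.5% and 99.6% of genes. In the single mice, the limb difference of the B lineage score was -1.15 in CKO 691, -1.05 in CKO 698 and 1.31 in WT 694. That of Cd180 was -1.39 in CKO 691, -1.01 in CKO 698 and 1.03 in WT 694. In CKO 688 and 693, whose B lineage score moved by 0.03 and -0.05, the Cd180 difference was -0.26 and -0.22.

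Myd88 followed the neutrophil score in these differences (r = 0.93, rho = 0.98; permutation p = 8e-05, adjusted p = 0.000601; 0.91 without mice 691 and 699), and Ticam2 did so at 0.88 (rho = 0.92; adjusted p = 0.00271). Tlr4 did not pass with any marrow score: r was 0.49 with the monocyte and macrophage, 0.29 with the neutrophil and 0.30 with the B lineage score, with adjusted permutation p-values of 0.192, 0.488 and 0.46. These Tlr4 values depended on a few mice. In WT mice alone they were -0.05, -0.11 and -0.34, and without the 2 mice farthest from the median of each score they were -0.05 (without 698 and 691), 0.33 (without 691 and 699) and 0.70 (without 694 and 691). For Tirap the values with all mice ran from 0.10 to 0.42 over the 3 scores. With the neutrophil score Tirap had r = 0.54 in WT mice alone and -0.04 without 691 and 699. A difference between the correlations of Tlr4 and of Cd180 was not tested. Without mice 686 and 688, a setting chosen after seeing the data, Cd180 had r = 0.98 and Ly86 0.96 with the B lineage score, Myd88 0.94 with the neutrophil score and Tlr4 0.50, 0.26 and 0.29 with the 3 scores. Cd14 moved most with these scores, in the same order to 0.82, 0.76 and 0.62 from 0.64, 0.60 and 0.39.

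**Figure D4:**
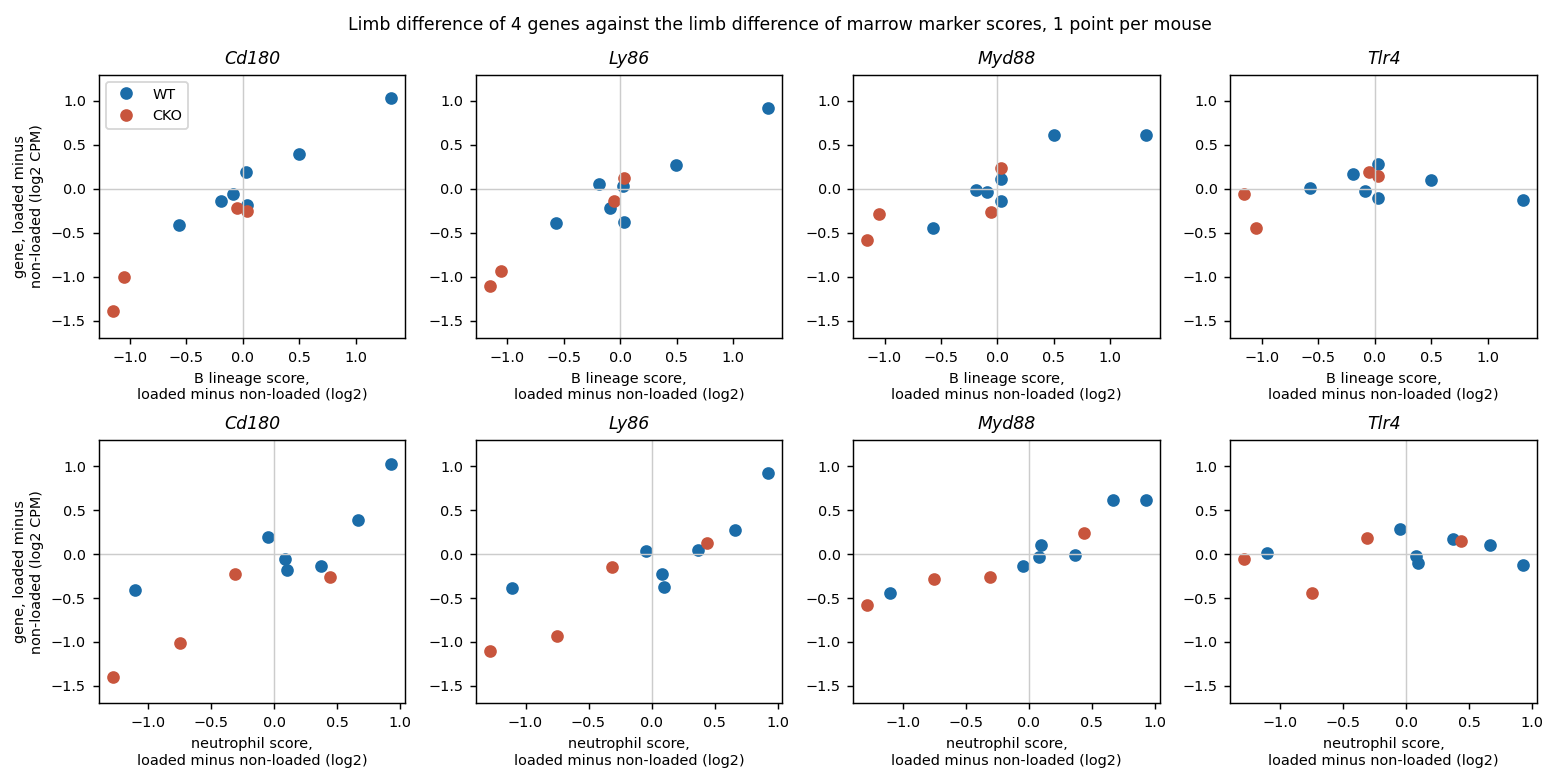
Loaded minus non-loaded difference (log2 CPM) of Cd180, Ly86, Myd88 and Tlr4 (y axes) against that of the B lineage score (upper row) and the neutrophil score (lower row), 1 point per mouse (7 WT, 4 CKO). Cd180 and Ly86 follow the B lineage score, with CKO 691 and 698 at the low and WT 694 at the high end, and the value for Tlr4 and the B lineage score goes from 0.30 to 0.70 without mice 694 and 691.

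The genes whose levels were most like those of each member over the 22 libraries, by Pearson correlation of log2 CPM among 11233 named genes of at least 5 CPM, fell into different sets. For Tlr4 they were Dubr (0.76), Tmem170 (0.75) and Atl3 (0.74), the lowest values for any of the 10. For Ly96 they were Ppt1 (0.77), Rdh11 (0.76) and Gm2a (0.75), and for Cd14 Lipg (0.90), Il1r2 (0.86) and Sema6b (0.84). Lbp was nearest to Tgfbi (0.92), Hpcal1 (0.92) and Ifitm3 (0.91). Myd88 was nearest to Scamp2 (0.94), Wdr1 (0.93) and Cfl1 (0.93), Tirap to Mcu (0.93), Anxa11 (0.92) and Flot2 (0.92), and Ticam1 to Zfp526 (0.87), Lmf2 (0.86) and Slc35b4 (0.86). Ticam2 was nearest to the cytokine receptor gene Csf2ra (0.94), Sema4a (0.94) and Tmem154 (0.94). Cd180 was near to Cep250 (0.89) and Zc3h12d (0.89), and Ly86 to March1 (0.96), Sept6 (0.95) and Zc3h12d (0.95), which both members of the RP105 pair thus share. These values describe libraries that differ in depth and tissue make-up, and carry no test.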

How the data were processed

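Total RNA of ulnar bone of 11 mice was sequenced from stranded libraries, per the labels' protocols. The authors deposited estimated counts per gene for each library; STAR, RSEM and GRCm38 are named in the submitters' processing notes, without versions or annotation. Values are whole numbers and were used as counts. GENCODE M21 gave coordinates, exon lengths and overlaps.

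Groups, with the mouse as replicate, came from the labels. edgeR 4.0.16 (R 4.3.3, limma 3.58.1; filterByExpr, TMM, robust quasi-likelihood) was fitted to all 22 libraries with 4 group means (18793 genes, 18 residual degrees of freedom), and to the summed limbs of 11 mice (19962 genes, 9 degrees). Benjamini-Hochberg adjustment ran over all tested genes, with calls under 0.05. The standard error is the log2 fold change divided by the square root of F; log2 CPM used a prior count of 2. Members are named in every comparison; of other lists at most the 3 genes with the smallest p, with the 3 nearest genes per member and Ltbp2; 1 gene that this rule names is not reported here. Members and lists were chosen with earlier results of these data known.

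Both limbs of a mouse carry its number, which therefore pairs them; their deviations from group means correlated at -0.256 to 0.415 (median 0.189), over 0.1 in 7 of 11 mice. Alternatives were other scalings, filters, DESeq2 1.42.0, limma voom, a replicate block, covariates and left-out mice. The fits were tested on simulated data. P-values of the main fit to all libraries measure the spread between libraries, with the limbs of a mouse taken as separate. Those of the summed limbs, the exact test and the score correlations measure the spread between these animals.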

Additional observations from a re-analysis of the deposited data

Results flagged for a closer look

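In 3 of 40 groups (10 genes, 4 groups of libraries) a single library lay far from the others of its group; chance alone gives about 1 in 20. Ly96 in the loaded limb of CKO 698 was 0.438 CPM, with the other 3 at 1.001 to 1.16 CPM. Ticam2 in the non-loaded limb of WT 699 was 12.8 CPM, with the other 6 at 3.63 to 5.78 CPM. Ly86 in the non-loaded limb of CKO 691 was 24.3 CPM, with the other 3 at 13.6 to 14.0 CPM. The limbs of 691 and 699 also had the highest neutrophil scores, 8.60 and 9.21 (mean log2 CPM of the list) in the non-loaded bone; the part of this in the values was not tested.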

How the results depend on the processing

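In 25 settings beside the one reported, 0 of the 10 genes were called in all 162 combinations of comparison and setting, in edgeR, DESeq2 and limma voom; the lowest adjusted p of a member was 0.137, for Cd180 between genotypes in loaded bone with limma voom quality weights. Of 1620 alternative fold changes of members, 1561 stayed within 1 standard error of the reported value and 59 moved further; 187 changed sign, none of them a called value. The replicate block gave Cd180 a loading effect of -0.72 in CKO (unadjusted p = 0.0108) and a difference between genotypes of -0.84 (unadjusted p = 0.0162), and changed no call at the adjusted threshold. With the block and without mice 686 and 688, a setting chosen after seeing the data, the difference was -0.97 (unadjusted p = 0.0193); with only the loaded libraries of 686 and 688 left out, also chosen after seeing the data, it was -0.94 (unadjusted p = 0.00908). The Tlr4 difference over mice lay between -0.19 and -0.10 on leaving out each mouse (exact p 0.0905 to 0.375). Ly96, with 14 to 89 counts per library, is the member most limited by depth.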
